A study of Mus musculus with 4 samples.

Results

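Transcripts of 8 marker genes of B cells and lymphoid follicles, namely Cd79a, Cd79b, Ms4a1, Cr2, Fcer2a, Pax5, Cd22 and Blk, were followed through total RNA profiles of mouse colon. They were picked by symbol, and all 8 were among the 46095 symbols of the count table. Colon of 21-day-old C57BL/6 mice gave 2 libraries of Esr2-/- animals (Esr2-KO, lacking the gene of estrogen receptor β) and 2 of wild type animals (WT). The series title places them in a study of estrogen receptor β in colitis. The labels name neither the deleted part of Esr2 nor the segment of colon, nor whether a library held 1 animal or several. The submitters describe triplicates, and any further library was not analysed here. Since nothing says that the libraries came from separate animals, p-values measure only the spread between these libraries.

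B cells are recognised by an antigen receptor made of membrane immunoglobulin and the CD79A and CD79B chains that carry its signal into the cell. In the mouse colon most B cells that have not become antibody-secreting plasma cells sit in colonic patches and isolated lymphoid follicles. In these scattered structures B cells gather around follicular dendritic cells. A piece of colon can hold many follicles or few, so each library is shown on its own. In bulk tissue, fewer B cells and less of a transcript per B cell cannot be told apart.

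The libraries held 30826790 to 33709643 counts. Esr2 itself had 6 and 16 counts in Esr2-KO and 21 and 13 in WT, too few to check the genotype labels. The colon markers Epcam and Vil1 were present in every library, with Epcam at 1445 and 1328 CPM (counts scaled to the library total, here adjusted by TMM) in Esr2-KO and 1367 and 1376 CPM in WT. Of 8 colon epithelium genes, the gut homeobox gene Cdx2 (log2 fold change -2.03 ± 0.34, SE) and the carbonic anhydrase gene Car1 (-2.11 ± 0.39) fell, and none rose. By edgeR's quasi-likelihood test the adjusted p of Cdx2 was 0.0373, but 0.105 without WT 1 and 0.0565 without WT 2, and that of Car1 was 0.0469, but 0.0560 without Esr2-KO 2. Esr2-KO 2 stood apart, with 17.4% of its counts from a list of 13 pancreatic acinar genes. The share was 0.0869% in Esr2-KO 1 and 0.0165% and 0.0187% in WT 1 and WT 2. Of that list, Prss2 and Try4 had 0 counts in every library, and pancreatic transcripts outside the list are not in the share.

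The start regions of 4 of the genes are shown because they share the one motif, of those searched, that occurred in more than 1 of them. Each is the 250 bases before a transcription start site of RefSeq (build GRCm38.p6), in the direction of transcription. For Fcer2a, inner stands for the middle of its 3 start sites. The region of Cd22 lies wholly inside the gene, which GENCODE places at 30865402 to 30880342. Capitals mark CAGGTG, an E-box bound by E proteins such as TCF3, or CACCTG, its reverse complement, and in Cd22 also CCCTGGGG, a match to CCCNNGGG, the core recognised by the B lineage factor EBF1.
Cd79a, chr7:24897247-24897496, plus strand: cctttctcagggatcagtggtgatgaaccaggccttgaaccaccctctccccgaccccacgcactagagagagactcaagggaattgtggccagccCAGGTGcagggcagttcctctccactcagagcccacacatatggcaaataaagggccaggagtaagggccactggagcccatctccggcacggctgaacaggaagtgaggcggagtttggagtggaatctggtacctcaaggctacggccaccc
Cr2, chr1:195176720-195176969, minus strand: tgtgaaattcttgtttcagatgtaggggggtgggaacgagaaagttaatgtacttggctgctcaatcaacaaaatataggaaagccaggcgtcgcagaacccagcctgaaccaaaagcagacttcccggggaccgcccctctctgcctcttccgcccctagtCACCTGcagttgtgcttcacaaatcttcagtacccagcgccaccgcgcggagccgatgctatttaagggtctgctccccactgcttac
Fcer2a, inner start site, chr8:3690862-3691111, minus strand: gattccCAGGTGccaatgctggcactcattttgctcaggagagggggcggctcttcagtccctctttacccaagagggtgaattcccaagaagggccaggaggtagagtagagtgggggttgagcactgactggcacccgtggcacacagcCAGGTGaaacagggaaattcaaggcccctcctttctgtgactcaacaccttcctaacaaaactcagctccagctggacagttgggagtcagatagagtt
Cd22, chr7:30879029-30879278, minus strand: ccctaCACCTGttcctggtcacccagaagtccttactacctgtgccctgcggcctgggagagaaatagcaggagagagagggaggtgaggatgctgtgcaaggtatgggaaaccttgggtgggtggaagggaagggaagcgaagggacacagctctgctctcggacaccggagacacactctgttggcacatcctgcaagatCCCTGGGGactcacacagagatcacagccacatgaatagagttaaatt

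The reference table held start regions for Cd79a, Cr2, Fcer2a (3 start sites), Pax5 and Cd22. The E-box began 154 bases before the start site in Cd79a, 88 in Cr2, 244 and 99 at the middle start site of Fcer2a, and 245 in Cd22. Over 32851 windows of the same length 17.2% held CAGGTG on either strand, against 4 of the 7 windows here. CCCNNGGG occurred in 11.8% of all windows and in 1 of the 7. Neither ATGCAAAT, the octamer of OCT factors (1.60% of all windows), nor GCGTGAC, part of the PAX5 site (1.78%), was found in the 7, and no matches of different motifs overlapped. These are letter matches in short windows.

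Esr2-KO 1 held the most transcript of all 8 genes and WT 1 the least, with Esr2-KO 2 and WT 2 between them. The Esr2-KO 2 to WT 2 ratio ran from 0.837 for Ms4a1 to 2.18 for Pax5. For Pax5, Esr2-KO 2 lay nearer Esr2-KO 1, by an Esr2-KO 1 to Esr2-KO 2 ratio of 1.34. Summed over the 8 genes, the libraries held 2985 and 1107 counts in Esr2-KO and 415 and 1327 in WT. As CPM of the plain library total this was 90.5 (95% Wilson interval 87.3 to 93.8) in Esr2-KO 1 and 35.9 (33.9 to 38.1) in Esr2-KO 2, against 12.3 (11.2 to 13.6) in WT 1 and 39.8 (37.7 to 42.0) in WT 2. On this scale the groups overlapped, with WT 2 above Esr2-KO 2. On the TMM scale, which takes account of the pancreatic transcripts in Esr2-KO 2, the sums were 87.3 and 42.0 CPM in Esr2-KO and 11.4 and 38.1 CPM in WT, with means of 64.6 ± 32.0 and 24.8 ± 18.9 CPM (SD, n = 2 each), and the groups did not overlap. The intervals cover counting error only.

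**Figure D1:**
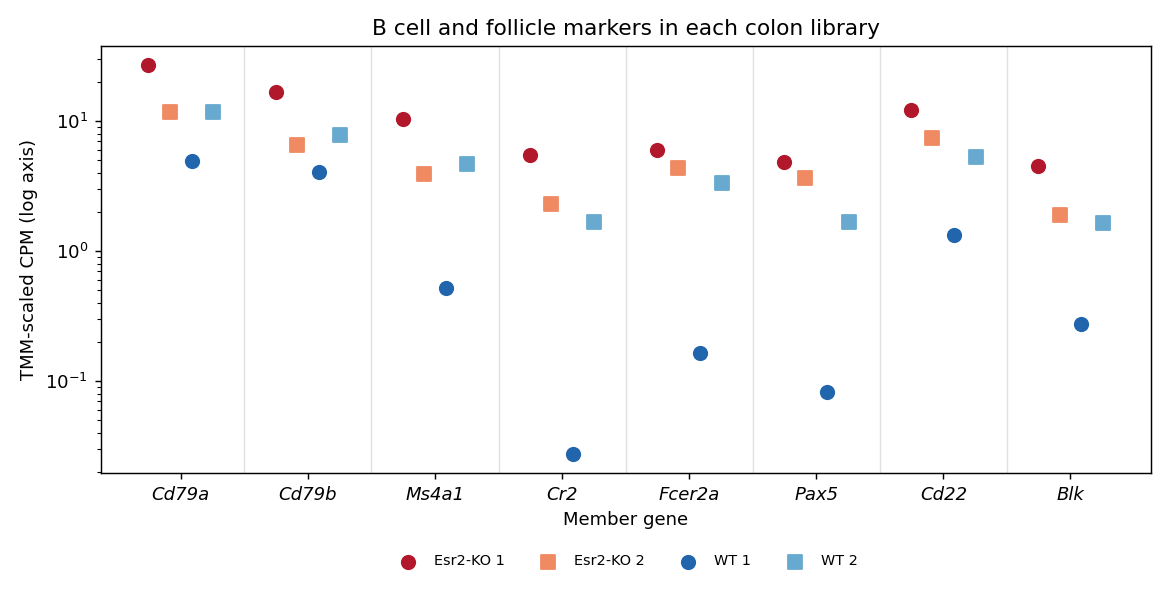
TMM-scaled CPM of each of the 8 genes (x axis) on a log axis, with 1 point per library, Esr2-KO in red and WT in blue. Esr2-KO 1 is the highest and WT 1 the lowest library for every gene, and WT 1 drops farthest for Cr2, at 0.0275 CPM.

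The antigen receptor chains were the most abundant of the set per exon length in every library. Cd79a, on chromosome 7 from 24897381 to 24902197 (GRCm38, plus strand), stood at 27.0 and 11.8 CPM in Esr2-KO and 4.93 and 11.9 CPM in WT. Its partner Cd79b, on chromosome 11 from 106311341 to 106314762 (minus strand), stood at 16.8 and 6.60 CPM in Esr2-KO and 4.10 and 7.88 CPM in WT. For both chains WT 2 exceeded Esr2-KO 2, so the groups overlapped. The log2 fold change of Esr2-KO over WT was 1.21 ± 0.50 for Cd79a and 0.97 ± 0.49 for Cd79b (SE, n = 2 per group), with edgeR quasi-likelihood adjusted p of 0.241 and 0.316. Set against exon length (1457 and 1431 bases in GENCODE M21), Cd79a led in all 4 libraries, at 18.5 and 8.10 CPM per kb in Esr2-KO and 3.38 and 8.17 in WT.

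Among the other surface molecules, Ms4a1, which encodes CD20, a membrane protein of B cells lost on plasma cells, had 356 and 104 counts in Esr2-KO and 19 and 164 in WT. This is 10.4 and 3.94 CPM in Esr2-KO, against 0.523 and 4.71 CPM in WT, again with WT 2 above Esr2-KO 2. Its log2 fold change was 1.46 ± 0.89 (edgeR adjusted p = 0.404). Cd22, a sialic-acid-binding receptor that damps antigen receptor signals, stood at 12.2 and 7.43 CPM in Esr2-KO and 1.32 and 5.35 CPM in WT. Both Esr2-KO libraries lay above both WT libraries for Cd22, and its log2 fold change of 1.57 ± 0.60 had the smallest p of the set (edgeR adjusted p = 0.211). Ms4a1 lies on chromosome 19 from 11249675 to 11266241 and Cd22 on chromosome 7 from 30865402 to 30880342, both on the minus strand.

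Cr2 and Fcer2a, markers of mature follicular B cells and follicular dendritic cells, had 1 and 6 counts in WT 1. Cr2, whose products are complement receptors on both cell types, had 188 and 61 counts in Esr2-KO and 1 and 58 in WT (chromosome 1, 195136811 to 195176716, minus strand). WT 1 with its single count was therefore far below WT 2, by a WT 2 to WT 1 ratio of 60.6 with an exact 95% counting interval of 10.45 to 2432. Fcer2a, which encodes the low-affinity IgE receptor CD23, had 204 and 115 counts in Esr2-KO and 6 and 116 in WT (chromosome 8, 3681737 to 3694175, minus strand). In CPM, Cr2 stood at 5.50 and 2.31 in Esr2-KO and 0.0275 and 1.67 in WT, and Fcer2a at 5.96 and 4.36 in Esr2-KO and 0.165 and 3.33 in WT. Neither gene's groups overlapped on this scale. Their log2 fold changes were 2.21 ± 1.13 for Cr2 and 1.57 ± 0.98 for Fcer2a, with edgeR adjusted p of 0.325 and 0.419.

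Inside the cell, Pax5, the transcription factor that holds cells in the B lineage, had 167 and 96 counts in Esr2-KO and 3 and 58 in WT (chromosome 4, 44524757 to 44710487, minus strand). That is 4.88 and 3.64 CPM in Esr2-KO, against 0.0826 and 1.67 CPM in WT, and the groups did not overlap. Its log2 fold change of 2.29 ± 0.96 was the largest of the 8 (edgeR adjusted p = 0.243). Blk, a Src family kinase downstream of the antigen receptor, stood at 4.50 and 1.90 CPM in Esr2-KO and 0.275 and 1.64 CPM in WT (chromosome 14, 63372836 to 63417037, minus strand). For Blk, too, both Esr2-KO libraries lay above both WT libraries, and its log2 fold change was 1.75 ± 0.80 (0.278 as edgeR adjusted p), but as a share of the library total WT 2 exceeded Esr2-KO 2. Transcripts on the opposite strand overlap exons of Pax5 and Cd22 in GENCODE, and no source used here says whether the counting used strand. The one of them in the count table, 5730488B01Rik within Pax5, had 0 counts in every library.

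All 8 genes passed the filter on low counts. None of the 8 reached an adjusted p under 0.05 by the quasi-likelihood test of edgeR, which 2.69% of the 17169 genes tested did. At an unadjusted p under 0.05 there were 3 (Cd79a, Pax5 and Cd22), beside 20.6% of all genes, and the likelihood ratio test of edgeR, limma-voom and DESeq2 also called 0 of the 8 at an adjusted p of 0.05, beside 7.81%, 3.53% and 10.2% of all genes they tested. All 8 log2 fold changes were positive, with a median of 1.57, beside a median of 0.00 over all genes, of which 2.14% lay above 1.57. Esr2-KO lay above WT without overlap for 5 of the 8 in TMM-scaled CPM, beside 27.0% of all genes, and for 4 of the 8 as a share of the library total, beside 13.6%.

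The size of the difference rested on single libraries. Without WT 1 the median of the 8 log2 fold changes was 0.79, and without Esr2-KO 1 it was 1.08. Without WT 2, so that WT 1 alone stood for wild type, the median was 3.66, and Cr2, Fcer2a, Pax5 and Cd22 passed with edgeR adjusted p from 0.0179 to 0.0403, beside 1.85% of all genes. With no filter on low counts Cd79a, Cr2, Pax5 and Cd22 passed with edgeR adjusted p from 0.0103 to 0.0472, beside 7.51% of all genes. Over all alternatives the adjusted p of the 8 genes ran from 0.0103 for Cd22 to 0.855 for Cd79b. WT 2 exceeded WT 1 by 1.92 times for Cd79b up to 60.6 times for Cr2, while the ratio of Esr2-KO 2 to WT 2 ran from 0.837 for Ms4a1 to 2.18 for Pax5. For each of the 8 genes the gap between WT 1 and WT 2 was wider than that between Esr2-KO 2 and WT 2.

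**Figure D2:**
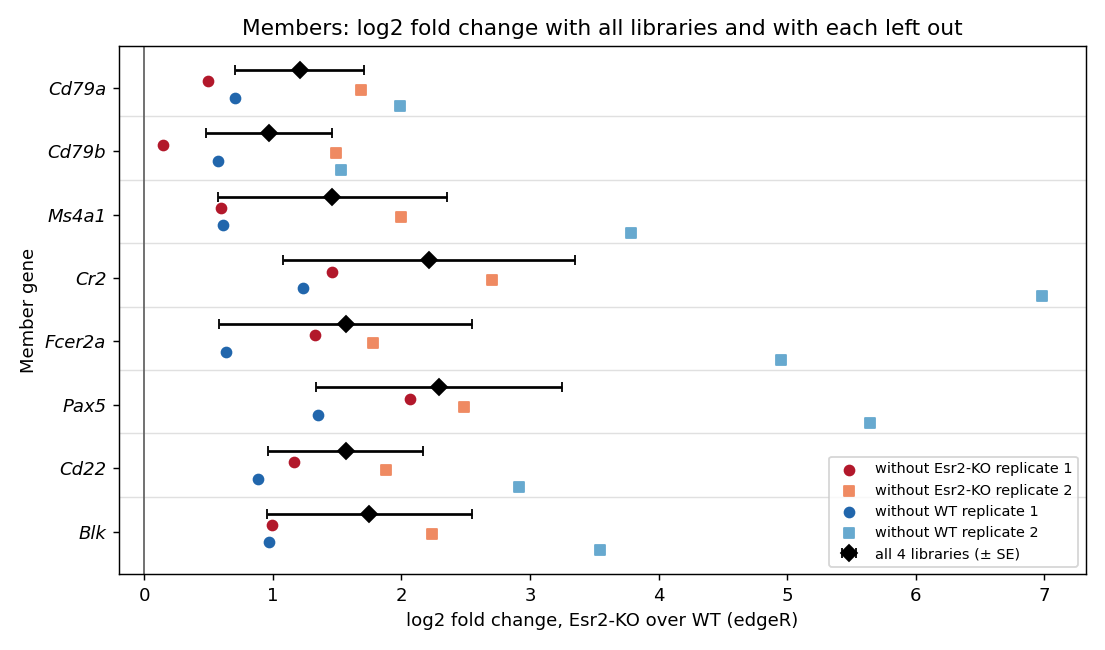
Log2 fold change of Esr2-KO over WT for each gene, with all 4 libraries (black diamonds, bars are SE) and with each library left out in turn (coloured points). All values are positive, those without WT 2 reach 6.98 for Cr2, and those without Esr2-KO 1 come down to 0.14 for Cd79b.

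The 8 genes did not scale together between libraries, as their shares of the set's summed counts, not adjusted for length, show. In WT 1, Cd79a and Cd79b made up 79.0% of the 415 counts of the set (95% Wilson interval 74.9 to 82.7), against 51.9% (49.2 to 54.5) in WT 2. The share was 50.2% (48.4 to 51.9) in Esr2-KO 1 and 43.8% (40.9 to 46.8) in Esr2-KO 2. Cr2, Fcer2a and Pax5 each made up 4.37 to 10.4% of the set's counts in the other 3 libraries, but 0.241%, 1.45% and 0.723% in WT 1. The Ms4a1 share was 11.9% and 9.40% in Esr2-KO, and 4.58% and 12.4% in WT. The make-up of Esr2-KO 1 and WT 2 was therefore close although Esr2-KO 1 held 2985 counts and WT 2 held 1327. The Cd22 share was 14.0% and 17.7% in Esr2-KO, and 11.6% and 14.0% in WT, so it did not drop in WT 1 as those of Cr2, Fcer2a and Pax5 did.

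**Figure D3:**
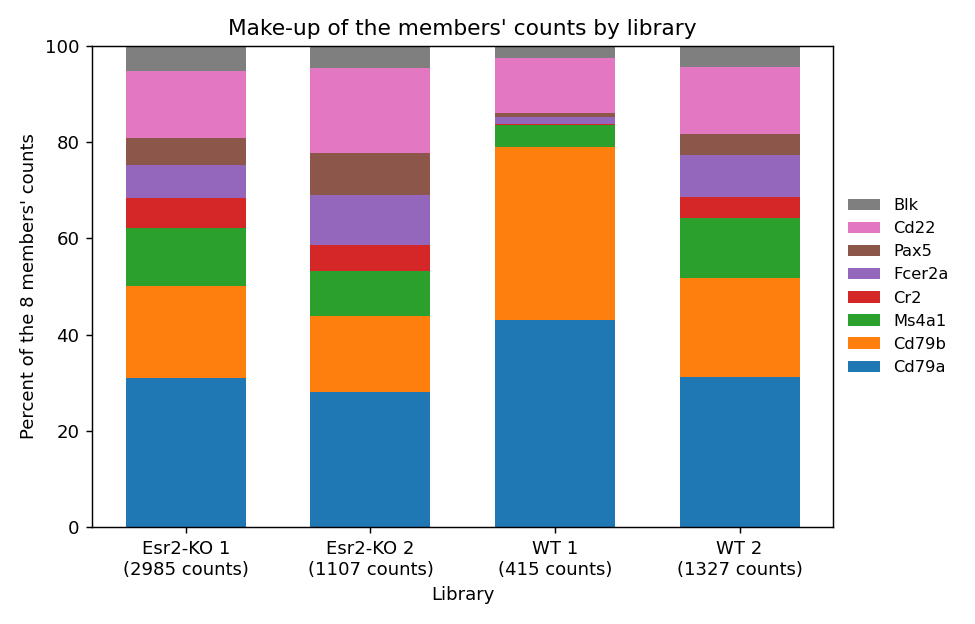
Stacked bars give the percent of the 8 genes' counts that each gene took in each library, with the summed counts under each bar. The Cd79a and Cd79b segments fill 79.0% of WT 1 and 43.8 to 51.9% of the other libraries.

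Other genes of the B lineage were read from lists of surface and signalling molecules and of transcription factors. Of 19 tested surface and signalling genes none passed, with 12 positive and 7 negative log2 fold changes and a median of 0.26, beside 0.00 over all genes. The smallest p values by the quasi-likelihood test belonged to Fcgr2b, an inhibitory Fc receptor that macrophages also carry (-0.72 ± 0.17, edgeR adjusted p = 0.0857), and Prkcb, a kinase of the receptor pathway (0.55 ± 0.18, 0.151). Fcgr2b passed in 4 of 14 alternative fits, namely without Esr2-KO 1 (0.0140), with no low-count filter, by DESeq2 and by the likelihood ratio test. Syk, a kinase next to the receptor that other cells of the colon express as well, stood at 59.9 and 54.5 CPM in Esr2-KO and 67.5 and 58.1 CPM in WT. The list was mixed. Fcrla (1.42 ± 0.56), Bank1 (0.93 ± 0.55), Cd37 (0.76 ± 0.45) and Fcrl1 (0.67 ± 0.61) were highest in Esr2-KO 1 and lowest in WT 1, as the 8 markers were. Cd72 (-0.15 ± 0.25) and Cd180 (-0.48 ± 0.45) were highest in WT 2 and lowest in Esr2-KO 2. Of 11 transcription factors none passed either (median 0.21), and Foxp1 (0.33 ± 0.11, edgeR adjusted p = 0.159) and Tcf3 (0.36 ± 0.12, 0.178) led. Ebf1, which acts with PAX5 in B cells and is also made by stromal cells, stood at 8.86 and 7.43 CPM in Esr2-KO and 5.45 and 7.24 CPM in WT, without the drop in WT 1 that Pax5 showed.

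Genes that organise follicles came next. Of 17 tested cytokine, chemokine and receptor genes none passed, 15 were positive and 2 negative, and the median was 0.36. Cxcr5, the receptor that leads B cells into follicles, had the smallest p, at 4.97 and 2.73 CPM in Esr2-KO and 0.661 and 1.87 CPM in WT (1.61 ± 0.56, edgeR adjusted p = 0.177, but 0.0247 with no low-count filter). Cxcl13, the chemokine that CXCR5 binds, stood at 13.2 and 6.18 CPM in Esr2-KO and 4.57 and 9.31 CPM in WT. Tnfrsf13c, the receptor for the B cell survival factor BAFF, was picked after its values were seen, with 187 and 51 counts in Esr2-KO and 1 and 79 in WT. It thus dropped in WT 1 in the way of Cr2.

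Follicular dendritic cell genes other than Cr2 had a median of 0.54 over 6 tested, and none passed. Clu, a secreted chaperone that many cell types make, led them at 98.2 and 221 CPM in Esr2-KO and 19.9 and 43.5 CPM in WT (2.33 ± 0.47, edgeR adjusted p = 0.0577). Clu passed in 9 of 14 alternative fits, among them DESeq2, limma-voom, the replicate block and the fits without Esr2-KO 1, Esr2-KO 2 or WT 2, with adjusted p from 8.59e-07 to 0.165 over the 14. Mfge8, which marks apoptotic cells for uptake, stood at 93.9 and 82.8 CPM in Esr2-KO and 44.9 and 63.0 CPM in WT. The germinal centre list had a median of -0.57 over 7 tested with none past the threshold, led by Mybl1 (-1.69 ± 0.42, edgeR adjusted p = 0.0875) and Rgs13 (-1.92 ± 0.58, 0.134), both of which passed without Esr2-KO 1 (0.0431 and 0.000561), with no low-count filter and by the likelihood ratio test, and Mybl1 also by DESeq2 (0.0325). Rgs13, which tuft and mast cells also express, stood at 6.02 and 1.52 CPM in Esr2-KO and 11.1 and 17.9 CPM in WT. Of the 7 germinal centre genes tested 4 were negative and 3 positive, namely Bcl6 (0.08 ± 0.47), S1pr2 (0.13 ± 0.20) and Gcsam (0.13 ± 0.56).

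Plasma cell genes, the products of differentiated B cells, did not follow the 8 markers. None of 9 passed, with a median of -0.50, and the joining chain Jchain stood at 769 and 181 CPM in Esr2-KO and 1247 and 989 CPM in WT, so WT 1, lowest for every follicle marker, was highest for Jchain. The leading genes were Prdm1, the regulator of plasma cell fate (-1.32 ± 0.33, edgeR adjusted p = 0.0926), and Derl3 (2.05 ± 0.74, 0.190), which stood at 23.6 CPM in Esr2-KO 2, where pancreatic RNA was abundant, and between 3.17 and 3.80 CPM elsewhere. Prdm1 passed in 4 of 14 alternative fits, namely with library totals, with no low-count filter, by DESeq2 (0.00757) and by the likelihood ratio test, and Derl3 in 2, without Esr2-KO 1 (4.87e-05) and with no low-count filter. T cell genes also differed from the B cell markers in direction, with negative values for all 14 tested, a median of -0.77 and none past the threshold. Cd28, a T cell costimulatory receptor, led them (-1.44 ± 0.52, edgeR adjusted p = 0.190). The counts of the 8 B cell genes came to 3.21 and 2.54 times those of the 15 T cell genes in Esr2-KO. In WT they came to 0.363 and 0.943 times. These ratios, which do not depend on library scaling, did not overlap between the groups. For single genes, 27.0% of all tested lay higher in Esr2-KO without overlap in TMM-scaled CPM. No such share was computed for ratios, and both lists were chosen with earlier results of these data known.

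**Figure D4:**
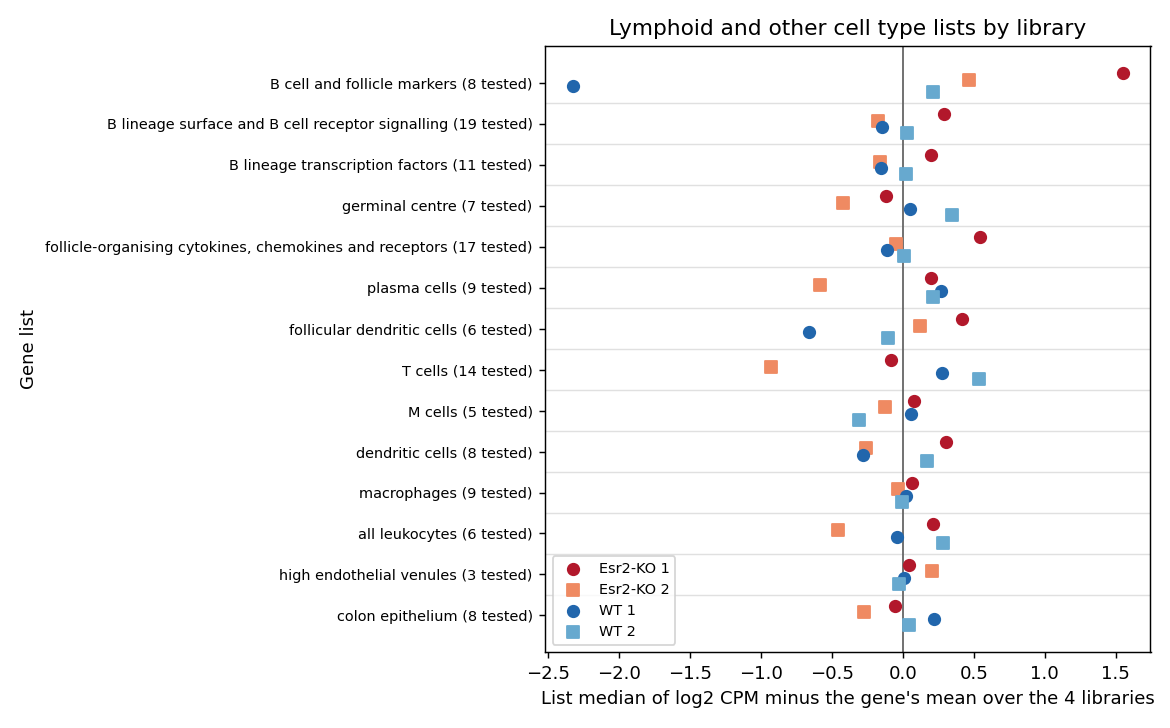
For each gene list (rows), points give the median over its tested genes of log2 CPM minus the gene's own mean over the 4 libraries, 1 point per library. The B cell and follicle markers spread from -2.33 in WT 1 to 1.55 in Esr2-KO 1, wider than the other lists shown, and the pancreatic list, at 8.59 in Esr2-KO 2, is left off the axis.

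Markers of other cells are given for comparison, and their part in the values of the B cell genes was not tested. Over 6 genes that all leukocytes share the summed level was 166 and 101 CPM in Esr2-KO and 139 and 169 CPM in WT, with 0 of 6 past the threshold, and Cd53 led (-0.32 ± 0.19, edgeR adjusted p = 0.379). Summed macrophage genes came to 773 and 689 CPM in Esr2-KO and 741 and 771 CPM in WT, with 0 of 9 past the threshold. Cd68 was in front (0.55 ± 0.17, edgeR adjusted p = 0.138), but 4 of the 9 were positive and 5 negative, with a median of -0.003. For dendritic cells 0 of 8 passed, and the sums were 26.6 and 23.3 CPM in Esr2-KO and 18.3 and 26.2 CPM in WT. Siglech, of plasmacytoid dendritic cells, had the smallest p (1.57 ± 0.65, edgeR adjusted p = 0.237). Of the 8, however, 3 were positive and 5 negative, with a median of -0.06. In the M cell list, of the epithelium over follicles, Ccl9 fell (-1.58 ± 0.21, edgeR adjusted p = 0.0257), at 30.2 and 19.5 CPM in Esr2-KO and 79.2 and 69.6 CPM in WT, a call that ended without WT 1 (0.0704). Of the 5 M cell genes tested, 3 were positive, Gp2 among them, and 2 negative, with a median of 0.27. Gp2, an M cell receptor that pancreatic acinar cells also make in bulk, had 211 and 54729 counts in Esr2-KO and 20 and 29 in WT. It thus cannot serve as an M cell marker in Esr2-KO 2. Acinar genes were also higher in Esr2-KO 1 (838 CPM summed) than in WT (153 and 180 CPM). Its level in Esr2-KO 1 cannot be assigned to M cells either.

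Lymph node tissue was looked at through genes of high endothelial venules, the vessels by which lymphocytes enter nodes. Of the 3 tested 0 passed, and the list summed to 60.1 and 48.1 CPM in Esr2-KO and 74.2 and 53.8 CPM in WT. Most of each sum was Chst4 alone, at 55.2 and 43.0 CPM in Esr2-KO and 70.2 and 49.4 CPM in WT. The sums therefore say little of the other genes of these venules. Glycam1, their secreted mucin, had 44 and 15 counts in Esr2-KO and 0 and 11 in WT, where 0 counts allow up to 0.0826 CPM in WT 1 (2.55 ± 1.15, edgeR adjusted p = 0.272). Its highest and lowest libraries were those of the B cell markers. The naive lymphocyte chemokines Ccl19 and Ccl21a had at most 6 counts in any library. The pancreatic list, led by Cela3b (11.51 ± 2.76, edgeR adjusted p = 0.0848, and past the threshold in 6 of 13 alternative fits, those without Esr2-KO 1 or Esr2-KO 2 among them), had 0 of 11 tested genes past the threshold and summed to 838 CPM in Esr2-KO 1 and 203080 CPM in Esr2-KO 2, against 153 and 180 CPM in WT. With the genes of the acinar list left out of totals and test, the median log2 fold change of the B cell markers was 1.57. Pancreatic transcripts outside that list, such as Gp2, stayed in.

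The genes whose course over the 4 libraries lay closest to the mean of the 8 markers were sought among 12566 others whose mean log2 CPM was 1 or more, by the root mean square difference of centred log2 CPM. Among the 5 nearest were the fucosyltransferase gene Fut9 (0.296), the phosphate transporter gene Slc20a1 (0.303) and the clock repressor gene Nr1d1 (0.420). Fut9 stood at 20.2 and 15.1 CPM in Esr2-KO and 2.20 and 9.80 CPM in WT. Slc20a1 stood at 647 and 491 CPM in Esr2-KO and 68.3 and 284 CPM in WT, and Nr1d1 at 126 and 136 CPM in Esr2-KO and 10.1 and 60.4 CPM in WT. None of these 3 passed, with edgeR adjusted p from 0.176 for Slc20a1 to 0.210 for Fut9. Without WT 2 the adjusted p was 0.0140 for Fut9, 0.00590 for Slc20a1 and 0.00151 for Nr1d1, and without WT 1 Nr1d1 passed too (0.0397). With no low-count filter all 3 passed, at 0.00511 or less. Likeness over 4 libraries is a description only.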

How the data were processed

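Ribosome-depleted total RNA of colon was sequenced, per the labels' protocols, with a directional kit, and reads were aligned with HISAT2 to mm10, per the submitters' processing notes. The deposited values are whole-number counts by symbol, not normalized. No source used here names the counting program, annotation or strand setting. Counts of 2 libraries of a group differed by far more than sampling noise (chi-square per degree of freedom 478 in Esr2-KO and 39.7 in WT). The value of 478 includes the acinar genes abundant in Esr2-KO 2, and their part in it was not computed. Genes passing filterByExpr (minimum count 10, minimum total 15) were scaled by TMM and tested, Esr2-KO minus WT, with edgeR 4.0.16 in R 4.3.3 (glmQLFit, glmQLFTest, two-sided, Benjamini-Hochberg over all genes, 2 residual degrees of freedom), after the procedure was tested on simulated data. CPM divides by the TMM-scaled total, and log2 CPM used a prior count of 2. DESeq2 1.42.0 and limma 3.58.1 were alternatives. The members, the 14 gene lists and the alternatives were chosen with earlier results of these data known. Beyond the 8 members, the text names Esr2, the genes of each list past the threshold (up to 4 for B cell lists and 2 for others) or otherwise the 2 or 1 with the smallest p, and the 5 of closest course; other genes were named with their values in view, as further examples from the lists. Some genes that this rule selects are not reported here. Sequences are RefSeq's (GRCm38.p6) and gene positions GENCODE M21's (GRCm38), the same build.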

Additional observations from a re-analysis of the deposited data

How the results depend on the processing

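All 8 log2 fold changes of the B cell and follicle markers were positive under all 14 alternative fits. Single calls and the size did not hold. Each fit kept Esr2-KO 1, the highest library for every marker, or WT 1, the lowest, so the fits could hardly turn the sign. Between Esr2-KO 2 and WT 2 alone, the ratio was 0.991 for Cd79a, 0.838 for Cd79b and 0.837 for Ms4a1. It ran from 1.16 for Blk to 2.18 for Pax5 in the other markers. Each library left out in turn gave 165 to 1804 genes past the threshold, 0 to 4 of the 8 markers and a median log2 fold change of the markers from 0.79 to 3.66. In such fits the lone library of a group is assumed to vary like the other group. Against 462 genes, the count was 695 with library totals (which moved the median of all genes to -0.17), 1916 with no low-count filter (with 4 of the markers), 1693 with DESeq2, 1341 with the likelihood ratio test and 1245 at an adjusted p under 0.1. The replicate number as a block gave 490 genes, none of the markers and a median of 1.90. The labels do not say that equal numbers pair the libraries, and replicate 1 deviations of the genotypes correlated at -0.06 over genes. DESeq2 and upper-quartile factors, a filter of 1 CPM in 2 libraries, limma-voom and leaving out acinar genes kept all counts within 1.5 times. The calls of Cdx2 (without WT 1 or WT 2) and Car1 (without Esr2-KO 2, as a block, or with the 1 CPM filter) ended too. Cr2, Fcer2a, Pax5 and Blk had 1 to 10 counts in WT 1, so counting error there is wide.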

Other observations

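Ighm, the heavy chain of the B cell antigen receptor, was listed at 0 counts in all 4 libraries, as were the follicle-forming cytokine genes Lta, Ltb and Tnf. Prss2 and Try4 of the acinar list were also at 0 in every library, even Esr2-KO 2, where that list summed to 203080 CPM. Whether such zeros mean absent transcripts or symbols left uncounted was not tested, so they are not read as absence. Ighd had 2 and 0 counts in Esr2-KO and 0 and 4 in WT, so the receptor's own chains could not be set beside Cd79a and Cd79b.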
